A study of Mus musculus with 6 samples.

Results

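The replication-dependent histone genes of mouse dental pulp were followed in RNA-seq libraries of wild-type (WT) mice and of mice without matrix metalloproteinase 13 (*Mmp13*-/-, MMP13KO in the labels). Members were chosen by name and type alone, as protein-coding rows of the deposited table whose symbol begins with Hist1h, Hist2h, Hist3h or Hist4h. The rule took 67 of the 53342 rows, of which 21950 were protein-coding. It gave 6 linker histone H1 genes and, for the core of the nucleosome, 18 H2A, 18 H2B, 12 H3 and 13 H4 genes. The 3 WT samples (numbered 2, 4 and 5) and the 3 *Mmp13*-/- samples (numbered 1, 2 and 6) were pulp of C57BL/6 mice aged 3 months, described as independent biological samples. The *Mmp13*-/- mice were homozygous for a deficiency of the gene throughout the body, so the comparison was not restricted to one cell type of the pulp. Molars and a column kit are named in the labels, whereas incisors and TRIzol are named in the study's methods.

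Nucleosomes wrap DNA around an octamer of H2A, H2B, H3 and H4, and H1 binds the DNA that enters and leaves it. Most of this protein is made while DNA is being copied, from clustered genes that lack introns and are switched on in S phase through NPAT, a cofactor activated by cyclin E and CDK2. Their messages mostly end in a short stem-loop in place of a poly(A) tail, which is bound by the stem-loop binding protein SLBP and cut with the help of the U7 snRNP. Some members also give polyadenylated transcripts, chiefly in cells that have left the cell cycle. Replacement variants are instead encoded by dispersed genes. Many of these, such as that of H2A.Z, have introns, give messages with poly(A) tails and are active through the whole cycle.

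In 44 of the 67 members a stem-loop of 16 bases was found in an annotated transcript, as a stem of 6 base pairs around a loop of 4 bases. The search asked for GG, 3 bases, TTTT, 1 base, A, 3 bases and CC with a fully complementary stem, on the sense strand only. The loop began 21 to 58 bases after the stop codon (median 31), inside the 3' untranslated region (UTR). Of the 23 members in which it was not found, 15 have fewer than 30 annotated bases after the stop codon, and in 13 of these the annotation ends at it. The forms are shown because they sort by class, with the stem in capitals and the loop in lower case.
Most frequent form, 26 members of H1, H2A, H2B and H3: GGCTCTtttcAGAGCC
Form of 7 members, all H4: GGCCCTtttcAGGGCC
Form of 6 members of H1, H2B and H3, among them *Hist1h2bb*, *Hist1h3c* and *Hist1h3f*: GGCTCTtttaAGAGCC
Form of *Hist1h4i* and *Hist2h4*: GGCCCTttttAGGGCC
Form of *Hist1h4b* and *Hist1h4j*: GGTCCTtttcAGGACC
Form of *Hist2h2ac*: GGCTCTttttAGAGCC
All 11 H4 members with a stem-loop carried a stem of their own kind, and no member of another class did.

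Members were also close to each other in coding sequence. Coding identity to the nearest member of the same class and coding length had a median of 98.7%, and 10 members shared their whole coding sequence with another member. Reads from such genes can be divided between them by the counting, so single members are less certain than their class sum.

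Promoters from RefSeq (build GRCm38.p6, 250 bases before to 50 after the start) were matched for 59 members, with 60 promoters. The CCAAT box, read on either strand, stood in 85.0% of them against 37.4% of all 32851 promoters. It was present in each of the H1, H2A, H2B and H3 promoters and in 3 of 12 H4 promoters. The TATA box sequence TATAAA stood in 55.0% against 13.6%, and the octamer ATGCAAAT, bound by OCT1, in 23.3% against 1.74%. All motifs were searched at any position of the promoter. The octamer was limited to 7 of 18 H2A and 7 of 17 H2B promoters. AAACACAAA, an element of H1 promoters, stood in 5.0% against 0.767%, which came to only 3 of the 60 promoters. Of the 6 H1 promoters 1 held it in full, that of the testis gene *Hist1h1t*, as did 1 H2A and 1 H2B promoter. The shorter AAACACA also stood in the H1 promoters of *Hist1h1b*, *Hist1h1c*, *Hist1h1d* and *Hist1h1e*, which the search for the full length left out. How often the shorter form stands in other promoters was not counted. No motif of one kind overlapped one of another kind in a member's promoter. The stretches shown are the 250 bases before the start of 3 genes with a large difference, and the bases between the starts of 3 divergent H2A and H2B pairs that differ in their change between genotypes. Motif letters, on either strand, are in capitals.
*Hist1h1a*, chr13:23763418-23763667, plus strand: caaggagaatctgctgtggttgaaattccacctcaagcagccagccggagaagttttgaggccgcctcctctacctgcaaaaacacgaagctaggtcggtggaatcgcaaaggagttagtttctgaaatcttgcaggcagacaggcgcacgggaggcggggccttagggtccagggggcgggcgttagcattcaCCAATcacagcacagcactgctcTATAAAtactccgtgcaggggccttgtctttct
*Hist1h2bb*, chr13:23746484-23746733, plus strand: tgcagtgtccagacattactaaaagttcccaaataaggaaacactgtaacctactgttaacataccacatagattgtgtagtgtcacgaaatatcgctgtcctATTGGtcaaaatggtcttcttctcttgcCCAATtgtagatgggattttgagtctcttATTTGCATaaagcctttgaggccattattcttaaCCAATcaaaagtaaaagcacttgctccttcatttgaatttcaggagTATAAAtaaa
*Hist1h4m*, chr13:21811496-21811745, plus strand: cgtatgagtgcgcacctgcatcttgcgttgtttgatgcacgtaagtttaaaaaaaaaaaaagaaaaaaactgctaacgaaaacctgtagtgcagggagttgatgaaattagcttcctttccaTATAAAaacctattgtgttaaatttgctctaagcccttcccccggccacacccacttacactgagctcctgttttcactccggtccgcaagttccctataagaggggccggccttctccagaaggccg
*Hist1h2bg* to *Hist1h2ae*, chr13:23571221-23571395, minus strand: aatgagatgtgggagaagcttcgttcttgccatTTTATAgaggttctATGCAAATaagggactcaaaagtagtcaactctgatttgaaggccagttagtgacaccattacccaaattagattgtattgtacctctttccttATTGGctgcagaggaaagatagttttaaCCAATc
*Hist1h2bc* to *Hist1h2ac*, chr13:23683949-23684198, minus strand: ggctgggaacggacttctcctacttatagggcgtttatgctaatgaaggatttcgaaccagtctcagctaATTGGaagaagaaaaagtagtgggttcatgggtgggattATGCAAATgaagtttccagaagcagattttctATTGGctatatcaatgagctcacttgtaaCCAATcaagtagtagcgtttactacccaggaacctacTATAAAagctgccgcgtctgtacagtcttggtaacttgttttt
*Hist2h2be* to *Hist2h2ac*, chr3:96220881-96221118, minus strand: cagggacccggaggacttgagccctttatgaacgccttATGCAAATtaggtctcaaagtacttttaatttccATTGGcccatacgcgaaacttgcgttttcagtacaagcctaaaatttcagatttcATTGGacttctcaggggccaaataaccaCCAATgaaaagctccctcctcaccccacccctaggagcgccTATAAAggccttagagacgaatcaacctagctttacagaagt
All 3 shared stretches held the CCAAT box, the TATA box and the octamer, and the *Hist1h4m* stretch held the TATA box without the other motifs.

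Values per library were estimated counts, scaled here with TMM factors to a common total of 1000000 counts (CPM). Library totals were 28442936 to 29980236 counts in WT and 21561420 to 26547121 in *Mmp13*-/-, so that the floor used here, 3 counts, came to 0.0952 to 0.174 CPM depending on the library. For *Mmp13* itself, WT samples 2, 4 and 5 gave 36.9, 39.2 and 30.2 CPM, and *Mmp13*-/- samples 1, 2 and 6 gave 0.323, 1.10 and 2.34 CPM, as the genotypes in the labels require. *Mmp13*-/- sample 6 stood apart, since the single gene *Gm10800* took 30.5% of its counts against 3.89% and 6.88% in samples 1 and 2 and at most 0.0277% in WT. Pulp matrix genes were present throughout, with summed marker CPM of 54674 to 61344 in WT and 16678 to 22233 in *Mmp13*-/-. These sums are mostly *Col1a1* and *Col1a2*, and of the 7 markers 3 rose and 3 fell over 2-fold. Skeletal muscle markers were also present in all 6 libraries, at 24229 to 31739 CPM in WT and 3899 to 9816 CPM in *Mmp13*-/-. Sums and counts of the histone genes are therefore also given without sample 6.

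Histone messages were more abundant in *Mmp13*-/- pulp in each class. Their summed level was 1113, 1273 and 1524 CPM in WT samples 2, 4 and 5 and 3084, 3425 and 2026 CPM in *Mmp13*-/- samples 1, 2 and 6. Every *Mmp13*-/- sample thus lay above every WT sample, with sample 6 nearest to WT. Means were 1303 ± 207 CPM in WT and 2845 ± 729 CPM in *Mmp13*-/- (SD, n = 3 each), a ratio of 2.18, which was 2.50 without sample 6. As part of all counts the members took 0.108% to 0.147% of WT libraries and 0.369%, 0.386% and 0.162% of *Mmp13*-/- samples 1, 2 and 6. In bulk tissue, a larger number of cells that make histones and more histone RNA per cell cannot be told apart.

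Gene by gene, 66 members passed the filter on low counts and were tested with edgeR, and *Hist1h2aa* was not tested. Of the 66, 45 rose more than 2-fold in *Mmp13*-/- pulp at an adjusted p under 0.05, where 20.4% of all 24534 tested genes did so. None of the 66 fell more than 2-fold, against 9.68% of all genes. At any fold, 53 members passed the test as higher (27.3% of all genes), none as lower, and 13 did not pass. All 3 *Mmp13*-/- samples lay above all 3 WT samples for 52 members (31.8% of all genes), and for *Hist2h2be* all lay below (7134 of all 24534 tested genes). The median log2 fold change was 1.48 over the tested members, 0.10 over all genes and -0.01 over protein-coding genes. Without sample 6 the number over 2-fold was 49, the median was 1.71, and *Hist2h3b* and *Hist2h2bb* were called lower. Permuting 3 against 3 samples cannot give a p under 0.1 for a single gene, so all p-values come from the fit across genes.

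**Figure D1:**
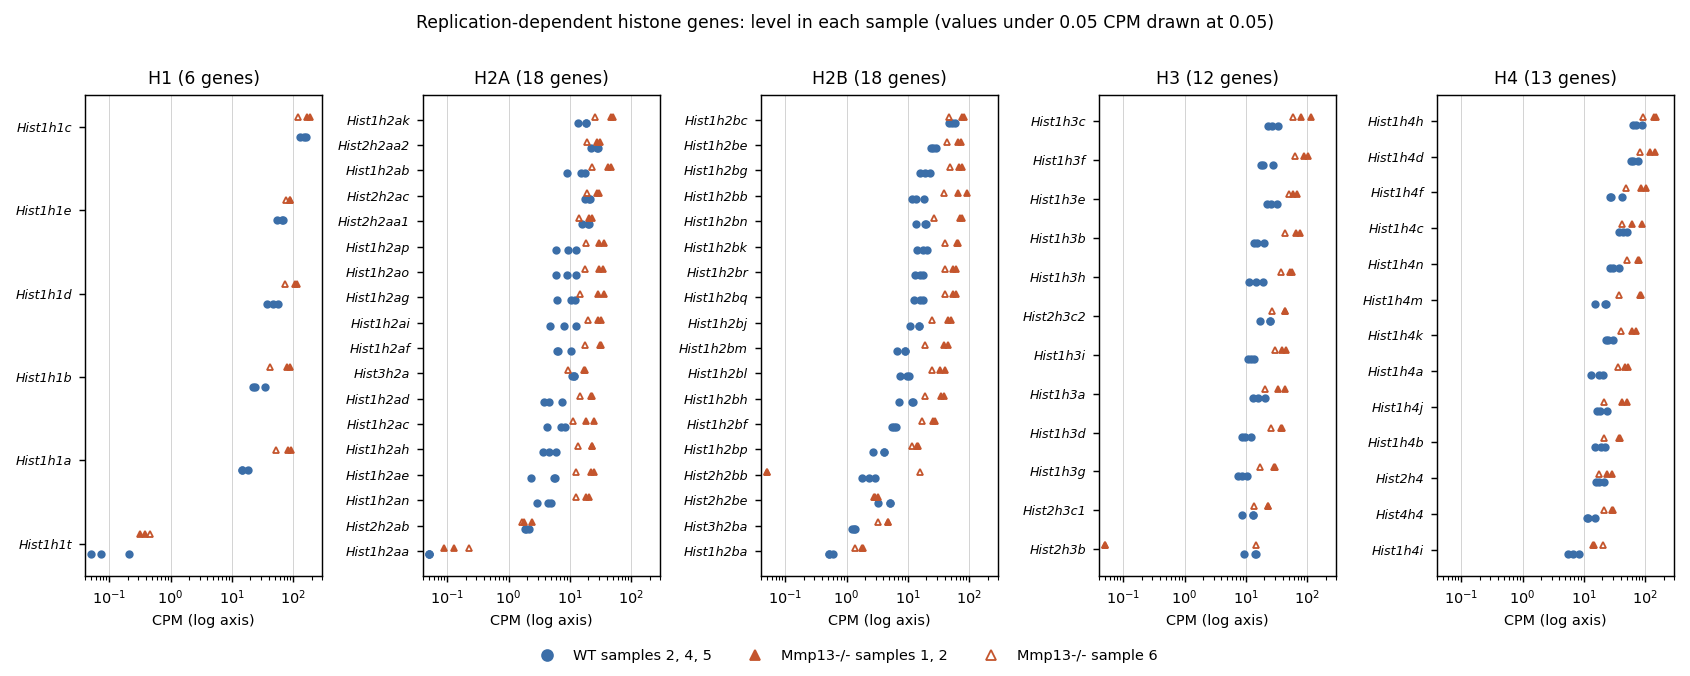
Level of each of the 67 members in each sample, as TMM-scaled CPM on a log axis, with one panel per class and members ordered by their mean. Circles are WT samples 2, 4 and 5, filled triangles *Mmp13*-/- samples 1 and 2, open triangles sample 6. Triangles lie to the right of the circles for 52 of the 66 tested members, and sample 6 is the lowest *Mmp13*-/- sample for 62 of them.

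Sample 6 was the *Mmp13*-/- sample with the lowest CPM for 62 of the 66 tested members. Over all 66 it was above every WT sample for 54. Samples 1 and 2 were both above every WT sample for 60 members, as for 9169 of all 24534 tested genes. For the other counts given here the share over all genes was not taken. The WT samples showed a spread of their own, with WT sample 2 the lowest of WT for 52 members. Standard errors of the log2 fold change were 0.15 at the least, with a median of 0.23.

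The linker histone class had the smallest ratio of the 5 classes. H1 genes summed to 259, 296 and 343 CPM in WT samples 2, 4 and 5 and to 530, 578 and 362 CPM in *Mmp13*-/- samples 1, 2 and 6, so that sample 6 was only just above WT sample 5. The ratio of the means was 1.64, and 1.85 without sample 6. Of the 6 H1 genes 3 rose over 2-fold, with a median log2 fold change of 1.22.

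The most abundant H1 gene, *Hist1h1c*, did not pass the test. It stood at 128, 148 and 163 CPM in WT and 170, 192 and 119 CPM in *Mmp13*-/-, with overlapping groups and a log2 fold change of 0.13 ± 0.20 (SE; edgeR adjusted p = 0.606). In WT it made up 48.8% of the H1 sum and in *Mmp13*-/- 32.7%. The opposite end of the class was *Hist1h1a*, a linker histone of dividing cells, at 14.9, 14.5 and 18.4 CPM in WT and 83.6, 91.7 and 52.9 CPM in *Mmp13*-/-. Its groups were far apart, and its log2 fold change of 2.25 ± 0.22 (edgeR adjusted p = 8.5e-05) was the largest of all tested members. *Hist1h1b* rose by a log2 fold change of 1.38 and *Hist1h1d* by 1.06. *Hist1h1e* passed the test below 2-fold, at 0.43 ± 0.15 (edgeR adjusted p = 0.0373). *Hist1h1t*, the testis linker histone, had 6, 0 and 2 counts in WT and 10, 11.7 and 8 counts in *Mmp13*-/-, and did not pass (edgeR adjusted p = 0.0805).

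H2A genes of the different clusters differed in their values. The class summed to 136, 186 and 211 CPM in WT samples 2, 4 and 5 and to 439, 485 and 265 CPM in *Mmp13*-/- samples 1, 2 and 6, a ratio of the means of 2.23 (2.60 without sample 6) with no overlap. All 12 tested H2A genes of the Hist1 cluster on chromosome 13 rose over 2-fold, and none of the 5 elsewhere did. With a correction for GC content 16 of the 17 were called higher, so this split did not hold there. *Hist1h2ak*, the most abundant H2A gene of the Hist1 cluster in both genotypes, was at 13.4, 18.1 and 18.4 CPM in WT and 47.4, 50.9 and 25.9 CPM in *Mmp13*-/-. Its log2 fold change was 1.32 ± 0.25 (edgeR adjusted p = 0.00172). *Hist1h2ae* had the largest H2A change, from 2.30, 5.79 and 5.55 CPM in WT to 22.5, 24.4 and 12.5 CPM in *Mmp13*-/- (log2 fold change 2.13 ± 0.35). By contrast *Hist2h2aa2*, the most abundant H2A gene in WT, stood at 22.0, 27.5 and 29.0 CPM in WT and 28.1, 31.1 and 19.3 CPM in *Mmp13*-/-. Its samples were fully mixed between genotypes, with a log2 fold change of 0.01 ± 0.19 (edgeR adjusted p = 0.984). *Hist2h2aa1*, whose coding sequence is identical to it, gave 0.03, *Hist2h2ab* gave -0.0047 and *Hist2h2ac* gave 0.38. None of these passed. *Hist1h2aa*, a testis H2A, had estimated counts of at most 0.0333 in WT and of 4.08, 2.70 and 3.92 in *Mmp13*-/- samples 1, 2 and 6, which is about the floor of 3 counts.

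H2B genes had the largest ratio of the 5 classes. They summed to 200, 243 and 271 CPM in WT samples 2, 4 and 5 and to 724, 801 and 466 CPM in *Mmp13*-/- samples 1, 2 and 6, so that each *Mmp13*-/- sample was well above the highest WT sample. The ratio was 2.79, and 3.20 without sample 6. With a GC correction the order changed, and the log2 ratio was 1.97 for H2B, 2.27 for H3 and 2.41 for H2A. Of 18 genes 15 rose over 2-fold, with a median log2 fold change of 1.70. *Hist1h2bb*, whose upstream bases are shown above, was at 11.6, 13.7 and 18.1 CPM in WT and 65.3, 90.6 and 38.5 CPM in *Mmp13*-/- (2.17 ± 0.29, edgeR adjusted p = 0.000315). *Hist1h2bg* rose by 1.74 ± 0.20 and *Hist1h2be* by 1.21 ± 0.19, although the annotation of *Hist1h2be* overlaps that of *Hist1h1e* on the same strand and reads may be shared. The most abundant H2B gene, *Hist1h2bc*, was an exception within the Hist1 cluster. Its 46.1, 52.7 and 59.4 CPM in WT and 75.3, 81.7 and 47.5 CPM in *Mmp13*-/- overlapped, with a log2 fold change of 0.37 ± 0.20 (edgeR adjusted p = 0.153). The only member with every *Mmp13*-/- sample below WT was *Hist2h2be*. It stood at 5.04, 3.29 and 5.15 CPM in WT and 2.89, 3.21 and 2.78 CPM in *Mmp13*-/-, and its log2 fold change of -0.60 ± 0.24 failed the test (edgeR adjusted p = 0.0568). *Hist1h2ba*, a testis H2B, lay between 0.511 and 0.602 CPM in WT and between 1.36 and 1.83 CPM in *Mmp13*-/-, and rose by 1.63 ± 0.37. Of 5 germ cell markers 4 were below the filter on low counts and *Sycp3* did not pass (0.30), with the 5 genes summing to 1.02 to 1.34 CPM in WT and 1.40 to 2.28 CPM in *Mmp13*-/-.

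H3 genes summed to 164, 200 and 240 CPM in WT samples 2, 4 and 5 and to 560, 632 and 403 CPM in *Mmp13*-/- samples 1, 2 and 6, without overlap, and the ratio of the means was 2.64, or 2.97 without sample 6. Of 12 genes 8 rose over 2-fold, and 11 rose at any fold. *Hist1h3f* had the largest change, from 17.9, 18.8 and 28.2 CPM in WT to 88.9, 103 and 62.8 CPM in *Mmp13*-/- (1.98 ± 0.23, edgeR adjusted p = 0.000177). *Hist1h3c*, the most abundant in WT, rose by 1.61 ± 0.24, *Hist1h3b* by 1.93 ± 0.22 and *Hist1h3e* by 1.14 ± 0.17. All of these encode the replicative H3 proteins, which are placed on new DNA by the chaperone CAF-1. The only H3 gene that did not pass was *Hist2h3b*, which is taken up below.

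H4 was the most abundant class in both genotypes. It summed to 354, 348 and 458 CPM in WT samples 2, 4 and 5 and to 830, 929 and 531 CPM in *Mmp13*-/- samples 1, 2 and 6, with every *Mmp13*-/- sample above WT and a ratio of the means of 1.97, or 2.27 without sample 6. Of 13 genes 7 rose over 2-fold and 11 at any fold, with a median log2 fold change of 1.08. The 2 most abundant members rose by less than 2-fold. *Hist1h4h* was at 70.9, 62.9 and 88.1 CPM in WT and 137, 149 and 92.1 CPM in *Mmp13*-/-, and passed the test below 2-fold (0.77 ± 0.21, edgeR adjusted p = 0.0113). *Hist1h4d* likewise passed at 0.82 ± 0.22, and *Hist1h4c* did not pass at 0.54 ± 0.25. *Hist1h4f* rose by 1.32 ± 0.28. The largest change was that of *Hist1h4m*, from 15.5, 23.2 and 22.0 CPM to 83.3, 84.9 and 36.9 CPM (1.76 ± 0.30, edgeR adjusted p = 0.00102). *Hist1h4n*, which has the same coding sequence, rose by 1.14 ± 0.20, so the division of reads between both bears on each value. *Hist2h4* had the smallest H4 change (0.37 ± 0.19) and did not pass.

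Levels of different genes were compared per kilobase of annotated exon. That length was 312 bases for *Hist1h4k*, whose annotation ends at the stop codon, and 7425 bases for *Hist1h1d*. The order therefore depends on how far the annotation of each gene extends. In WT the highest mean was that of *Hist1h4h*, at 157 CPM per kb, followed by *Hist1h1c* at 93.7 CPM per kb, *Hist1h4k* at 83.1 CPM per kb and *Hist1h4f* at 81.4 CPM per kb. In *Mmp13*-/- pulp *Hist1h4h* was again highest, at 268 CPM per kb, and *Hist1h4f* followed at 202 CPM per kb, while *Hist1h1c* stood at 103 CPM per kb.

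**Figure D2:**
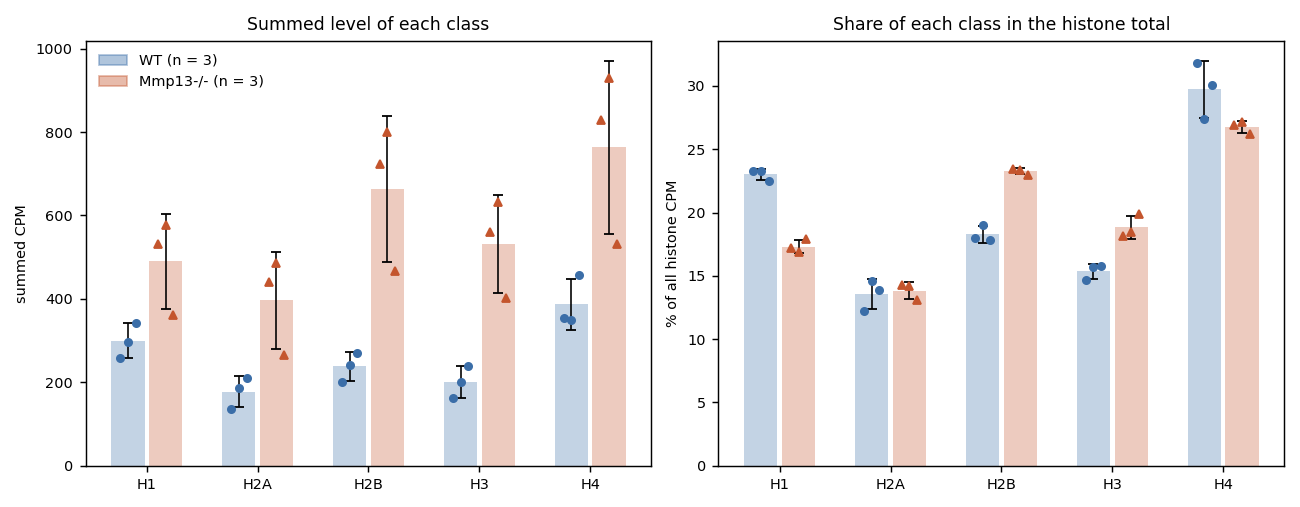
Left, summed TMM-scaled CPM of the members of each class. Right, the share of each class in the summed CPM of all members. Bars are means, error bars SD over 3 samples, and points single samples (circles WT, triangles *Mmp13*-/-). H2B went from 18.3% to 23.3% of the histone total and H1 from 23.0% to 17.3%, without a correction for GC content.

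Shares of the classes in the histone pool were taken next, and here sample 6 lay close to samples 1 and 2. Of the histone CPM, H1 took 23.3%, 23.3% and 22.5% among WT samples 2, 4 and 5, against 17.2%, 16.9% and 17.9% among *Mmp13*-/- samples 1, 2 and 6. H2B made up 18.3% ± 0.664 in WT and 23.3% ± 0.253 in *Mmp13*-/- (SD, n = 3), and H3 15.4% ± 0.593 and 18.8% ± 0.918. For these 3 classes the genotypes did not overlap. H4 went from 29.7% ± 2.23 to 26.7% ± 0.489, also without overlap, and H2A was at 13.6% ± 1.21 and 13.8% ± 0.664 with overlap. These shares are descriptions, and the difference between classes was not tested. They are without a correction for GC content. With it H2A had the largest ratio of summed levels and H3 the next, and the ratio of H2B was close to that of all members. H1 still had the smallest ratio. The unchanged share of H2A and the size of the H2B gain thus depend on that correction.

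Members lie in 2 blocks of Hist1 genes on chromosome 13 (chr13:21715763-22043676 with 23 genes and chr13:23531050-23934851 with 31), one block of 10 Hist2 genes on chromosome 3 (chr3:96219865-96270132), a pair of Hist3 genes on chromosome 11 and *Hist4h4* on chromosome 6 (GENCODE M21, GRCm38). In the first Hist1 block 22 of 23 genes rose over 2-fold, and in the second 21 of 30 tested. Of the 10 Hist2 genes, which include *Hist2h3b* and *Hist2h2bb* described below, none did, and only *Hist2h3c1* and *Hist2h3c2* passed at any fold, each with a log2 fold change of 0.78. Medians were 1.59 on chromosome 13 and 0.20 on chromosome 3. *Hist3h2ba* rose by 1.69 and *Hist4h4* by 1.08, and *Hist3h2a* stood at 0.36 and did not pass. With a correction for GC content, 5 of the 10 Hist2 genes were called higher and their median was 1.27, against 46 of 53 and 2.47 on chromosome 13. The low count on chromosome 3 thus did not hold under that correction, and the difference between chromosomes was not tested.

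**Figure D3:**
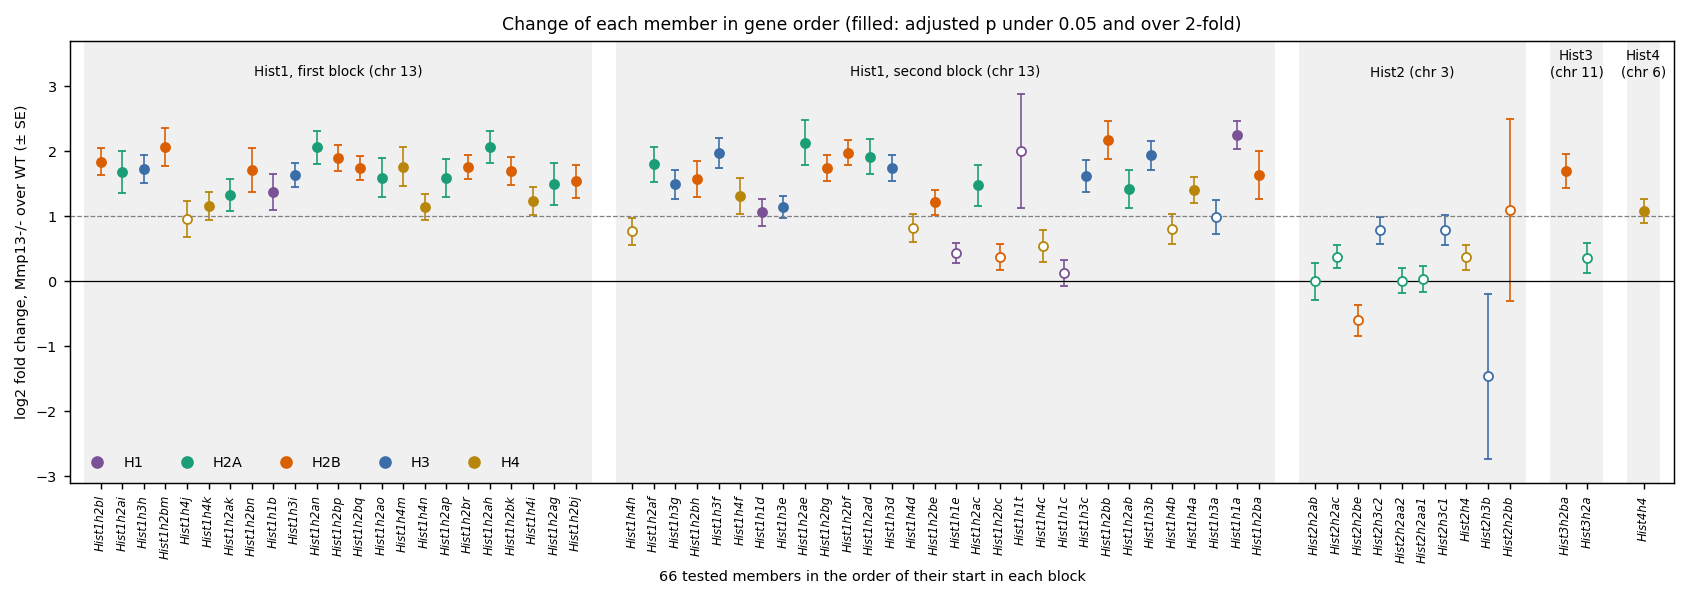
Log2 fold change of *Mmp13*-/- over WT with its SE (edgeR) for the 66 tested members, ordered by their start in each block, with colour for the class. Filled points passed an adjusted p of 0.05 and a change over 2-fold, and the dashed line marks 2-fold. Filled points make up 22 of 23 genes in the first Hist1 block and none of the 10 in the Hist2 block.

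Divergent pairs of H2A and H2B genes share the bases between their starts. There were 12 such pairs, 176 to 306 bases apart, and in 11 both genes were tested. Within a pair the log2 fold changes differed by 0.16 in the median. *Hist1h2ae* and *Hist1h2bg*, whose shared bases are shown above, gave 2.13 and 1.74. The widest difference, 1.10, was that of *Hist1h2ac* at 1.47 and *Hist1h2bc* at 0.37. *Hist2h2ac* and *Hist2h2be* followed, at 0.38 and -0.60. In both of these pairs the H2B gene was the lower one, and over the 11 pairs the H2B gene had the higher value in 6.

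Transcript ends were compared from the annotation. An AATAAA hexamer, the usual poly(A) signal, stood in the annotated 3' UTR of 19 members, 14 of them with a stem-loop as well. Of these 19 members 11 rose over 2-fold with a median log2 fold change of 1.21, against 34 of 47 tested members without it and a median of 1.54. By length, 10 of 21 members with an annotated 3' UTR of 400 bases or more rose over 2-fold (median 0.95), against 35 of 45 with a shorter one (median 1.61). *Hist1h1c*, *Hist1h2bc* and *Hist2h2be*, which did not pass, belong to the longer kind. So do *Hist1h3f*, *Hist1h2be*, *Hist1h3e* and *Hist1h1d*, which rose over 2-fold, *Hist1h3f* with the largest H3 change (1.98). On chromosome 13 alone, 9 of 13 members with AATAAA and 34 of 40 without it rose over 2-fold. On the other chromosomes the order was opposite, with 2 of 6 (median 0.58) and 0 of 7 (median 0.03). Which end was used in these libraries was not measured, and these differences were not tested.

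A pair of Hist2 genes could not be read from their own rows. *Hist2h3b* had 266, 420 and 384 estimated counts in WT samples 2, 4 and 5, 0 in *Mmp13*-/- samples 1 and 2, and 254 in sample 6. *Hist2h2bb* (named after its values were seen) had 68.4, 52.4 and 79.7 in WT, 0 in samples 1 and 2, and 272 in sample 6. Neither passed the test, with standard errors of 1.27 and 1.41. Both genes lie inside *Gm20628*, an antisense gene on the opposite strand that was also named after its values were seen. *Gm20628* had 383, 408 and 466 counts in WT and 4886, 5078 and 895 in *Mmp13*-/-, where samples 1 and 2 were the ones with no counts in these histone genes. Its log2 fold change was 3.09 (edgeR adjusted p = 0.000217). The 3 genes together had 718, 880 and 929 counts in WT against 4886, 5078 and 1422 in *Mmp13*-/-, with no overlap. *Gm42743*, a lincRNA row on the same strand that overlaps *Hist2h2bb* and is not in that sum, had 61.4, 44.4 and 73.7 counts in WT and 361, 183 and 272 in *Mmp13*-/- (named after its values were seen). The sources used here do not say whether counting used the strand, so reads of these genes and of their antisense partner cannot be told apart.

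**Figure D4:**
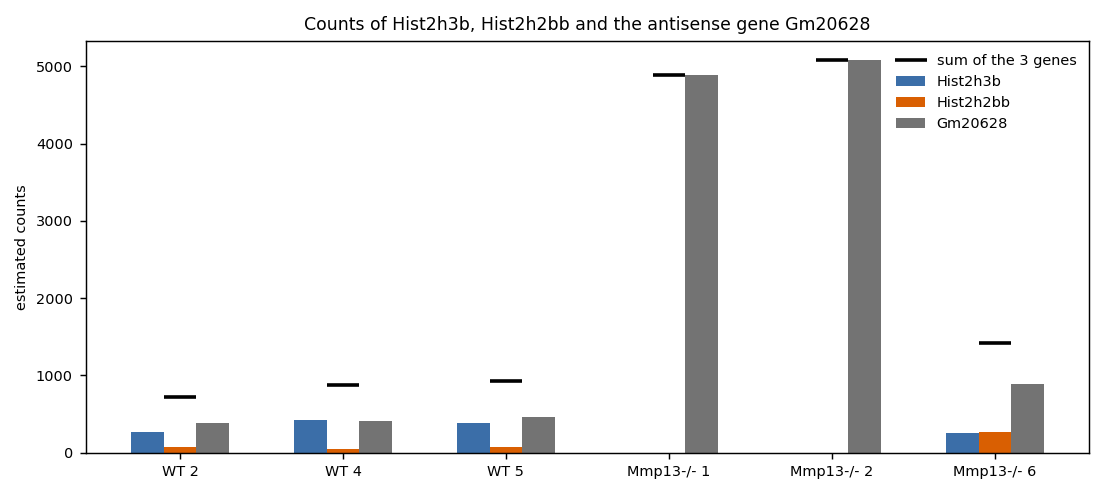
Estimated counts of *Hist2h3b*, *Hist2h2bb* and the antisense gene *Gm20628* in each sample, with their sum as a black line. In *Mmp13*-/- samples 1 and 2 all counts of these 3 genes (4886 and 5078) were given to *Gm20628*, whereas WT and sample 6 divide theirs.

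The replacement variants moved less than the members, and in both directions, as all tested genes did. Of 11 tested genes 1 rose and 1 fell over 2-fold, 4 passed as higher and 3 as lower at any fold, and the median log2 fold change was -0.27. Of all 24534 tested genes 20.4% rose and 9.68% fell over 2-fold. At any fold 27.3% of all genes passed as higher and 5955 of the 24534 as lower. *H2afz*, which encodes H2A.Z of promoters, rose from 29.0, 18.1 and 25.7 CPM in WT to 73.5, 81.1 and 54.0 CPM in *Mmp13*-/- (1.52 ± 0.21, edgeR adjusted p = 0.000362). *H3f3a*, a gene of the replacement H3, rose by 0.85 ± 0.17, whereas *H3f3b*, which encodes the same protein and was more abundant, gave -0.04 ± 0.16 with overlapping groups. *H2afx*, the variant phosphorylated at DNA breaks, passed at 0.73 and *Cenpa*, the centromeric H3, at 0.61. Lower levels were found for 3 variants. *H1f0*, the H1 of differentiated cells, fell by 0.61 on the log2 scale, macroH2A (*H2afy*) by 0.62 and *H1fx* by 1.31, each with every *Mmp13*-/- sample below WT. *H2afj*, *H2afy2* and *H2afv* did not pass, at -0.51, -0.27 and -0.31. Every *Mmp13*-/- sample of *H2afj* and *H2afv* lay below WT as well, which made 5 of the 11 variants, against 7134 of all 24534 tested genes. With a GC correction 2 variants were called higher and none lower over 2-fold, so the fall of *H1fx* did not hold there (0.46).

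Genes that switch on and cut histone messages changed in part. Of 13 tested genes 5 rose over 2-fold (38.5%, against 20.4% of all tested genes) and none fell over 2-fold, with a median of 0.54. The number was 3 with the GC correction and 3 without WT sample 4. *Npat*, the S-phase coactivator of histone genes, was at 11.9, 8.11 and 9.28 CPM in WT and 24.5, 24.5 and 17.9 CPM in *Mmp13*-/- (1.19 ± 0.19, edgeR adjusted p = 0.00078). *Casp8ap2* (FLASH), which joins transcription to 3' end cutting, rose by 1.71 ± 0.22, and *Cpsf2*, the partner of the endonuclease CPSF3, by 1.09 ± 0.22. *Eri1*, an exonuclease that trims the stem-loop, rose by 1.12 ± 0.16. *Zfp473*, a protein of the U7 complex, was at 1.59, 1.32 and 1.40 CPM in WT and 2.80, 2.73 and 7.77 CPM in *Mmp13*-/- (1.61 ± 0.41). Without sample 6 its value was 0.96 and it was no longer over 2-fold. *Slbp* passed below 2-fold at 0.54 ± 0.19 (edgeR adjusted p = 0.0336), from 14.8 to 17.8 CPM in WT to 27.4, 25.9 and 17.2 CPM in *Mmp13*-/-, with *Mmp13*-/- sample 6 inside the WT range. *Ncbp1* and *Cstf2* also passed as higher, at 0.96 and 0.42, and *Cstf2* turned to -0.054 with the GC correction. Lower values were found for *Srrt* (-0.83) and for *Lsm11* of the U7 snRNP (-0.46), which passed, and for *Lsm10* (-0.20), *Hinfp*, a factor for H4 promoters (-0.19), and the nuclease *Cpsf3* (-0.26), which did not.

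Histone chaperones and the genes of DNA replication were read for comparison. Of 16 chaperones 4 rose over 2-fold (25%, against 20.4% of all tested genes) and none fell over 2-fold, with a median of 0.33. *Hat1*, the acetyltransferase of new H4, had the largest change (2.06 ± 0.17, edgeR adjusted p = 4.9e-05). The other chaperones with the smallest adjusted p were *Asf1b* at 1.69 and *Nasp*, a chaperone of H1 and H3, at 1.02. At any fold 7 chaperones passed as higher (27.3% of all genes) and 4 as lower (5955 of all 24534 tested genes). Of 30 S-phase genes 17 rose over 2-fold (20.4% of all tested genes) and none fell over 2-fold (9.68% of all), with a median of 1.06. At any fold 22 of the 30 passed as higher (27.3% of all genes), 1 passed as lower and 7 did not pass. *Pola1*, the catalytic subunit of DNA polymerase alpha, rose from 4.85, 3.62 and 4.05 CPM to 24.0, 24.3 and 16.1 CPM (2.37 ± 0.21, edgeR adjusted p = 5.77e-05). *Mki67*, a marker of cycling cells, rose by 2.26 and *Pcna*, the sliding clamp, by 1.38.

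**Figure D5:**
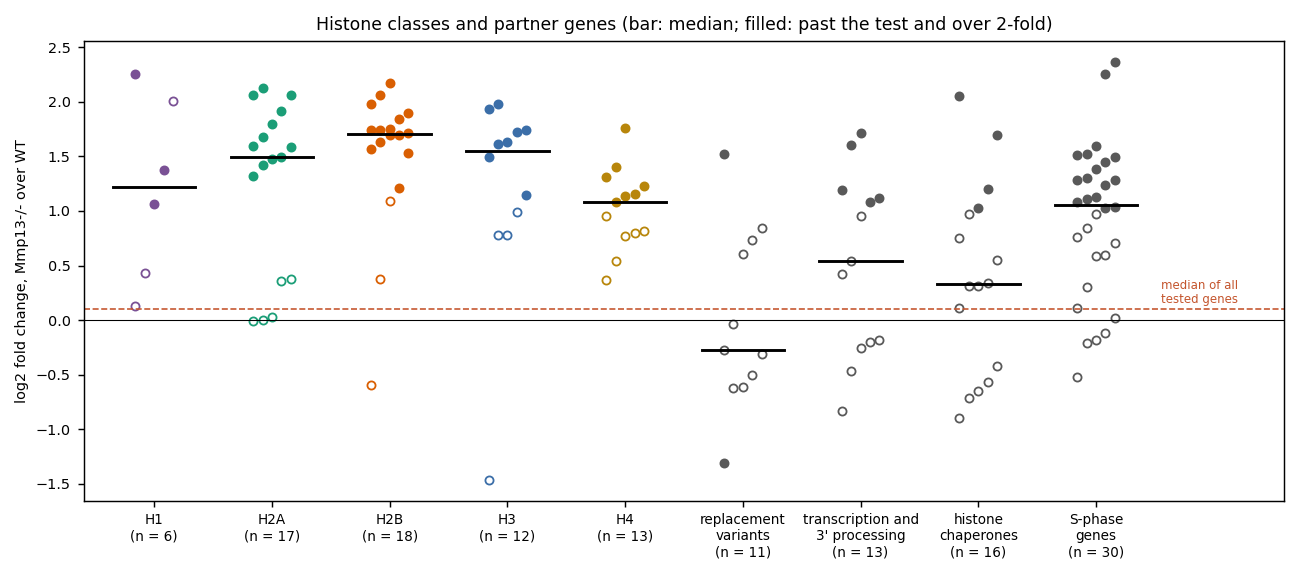
Log2 fold change of *Mmp13*-/- over WT (edgeR) for each tested gene of the 5 histone classes and of 4 lists of partner genes. Black bars are medians, filled points passed an adjusted p of 0.05 and a change over 2-fold, and the dashed line is the median of all tested genes (0.10). Medians are 1.08 to 1.70 for the classes, 1.06 for S-phase genes and -0.27 for replacement variants.

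The histone sum was also set against that of the S-phase genes. The ratio of the summed CPM of the members to that of the 30 S-phase genes came to 3.87, 4.15 and 4.44 for WT samples 2, 4 and 5, against 3.93, 4.42 and 3.89 for *Mmp13*-/- samples 1, 2 and 6, with full overlap. This ratio leaned on *Mki67*. Without that gene it was 4.51 to 5.29 in WT and 5.41 to 6.38 in *Mmp13*-/-, and the groups no longer overlapped.

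Summed levels of 3 lists of blood cell precursor markers were also higher in *Mmp13*-/- pulp. Of 8 erythroid precursor markers 4 rose over 2-fold, where 20.4% of all tested genes did. The 8 markers summed to 868 to 1393 CPM in WT and to 3787, 3827 and 2046 CPM in *Mmp13*-/- samples 1, 2 and 6. In WT this sum was mostly *Hba-a1* and *Hba-a2*, with means of 437 and 404 CPM. Neither of them rose over 2-fold (log2 fold changes 0.77 and 0.66). Of 7 neutrophil precursor markers 6 rose, with sums of 126 to 268 CPM in WT and 664, 858 and 357 CPM. Of 7 B cell precursor markers 6 rose, with sums of 40.1 to 43.5 CPM in WT and 65.4, 83.6 and 54.3 CPM. Most of that sum was *Ebf1*, at 38.9, 36.9 and 34.4 CPM in WT samples 2, 4 and 5. In *Mmp13*-/- samples 1, 2 and 6 *Ebf1* stood at 42.0, 51.7 and 34.8 CPM. It was the B cell marker that did not pass (log2 fold change 0.22), so the sum says little about the other markers. No marker of these 3 lists was at 0 in all samples. For the sum of each list sample 6 was the lowest *Mmp13*-/- sample, as it was for the histone genes. The same held for the sums of S-phase genes, chaperones, processing genes, replacement variants and skeletal muscle markers, so this order is not particular to blood cell markers. It did not hold for pulp matrix and germ cell markers. The part of blood cell precursors in the histone result was not tested.

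Other RNA without a poly(A) tail differed in the same direction. Small nuclear RNA genes summed to 84.0 to 90.0 CPM in WT and 799 to 919 CPM in *Mmp13*-/-, and small nucleolar RNA genes to 151 to 190 CPM and 876 to 1074 CPM. For these, sample 6 was the highest *Mmp13*-/- sample. How libraries selected RNA is described in the sources used here only as mRNA isolation on a column, and the part of this difference was not tested. Counts per kilobase over 1451 olfactory and vomeronasal receptor genes, which pulp should not use, were 0.0947 to 0.116 in WT and 1.50, 1.76 and 4.80 in *Mmp13*-/-. A background at that rate would make up 0.0150% to 0.0239% of the member counts in WT and 0.103% to 0.910% in *Mmp13*-/-, and subtracting it left all 45 members called. Members were rich in GC, with a median of 57.9% against 49.0% for other tested genes. Of the 8919 other tested genes between 51.2% and 62.2% GC, the middle range of the members, 8.94% rose over 2-fold, and their median log2 fold change was -0.51.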

How the data were processed

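Pulp RNA of 3 WT and 3 *Mmp13*-/- samples was used as 1 table. The authors derived its estimated counts from paired reads in Strand NGS, with mm10 named as the build and DESeq among the tools in the submitters' processing notes. Counting of shared reads and use of strand are not given in the sources used here. The deposited log2 values rest on the same counts, divided by median-of-ratios factors, and served for 1 alternative. Estimated counts, 89.5% to 93.4% of which were not whole (tolerance 0.001), were rounded. Tests ran under R 4.3.3 in edgeR 4.0.16 (quasi-likelihood, TMM factors, filterByExpr, Benjamini-Hochberg adjustment over all 24534 tested genes). A gene was called at an adjusted p under 0.05 and a change over 2-fold. SD is over the 3 samples of a genotype, and p-values measure the spread between these samples. Library totals are given in the report, and the floor covers counting error only.

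Annotation came from GENCODE M21 (GRCm38), where the Ensembl identifier of 99.8% of rows was found, and promoters from RefSeq, matched by gene number. Length is that of all annotated exons of a gene, and GC content is that of its longest annotated transcript. Blocks are members with less than 200000 bases between neighbours.

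Members and lists were chosen with earlier results of these data known. Genes were named by rule: in each class the 4 members with the highest mean CPM and the largest and smallest change, testis members, all replacement variants and processing genes, and the 3 chaperones and 3 S-phase genes with the smallest adjusted p. Chromosome totals also name the Hist2 and Hist3 genes they turn on, and other names outside the rule were chosen after their values were seen. *Symk* was listed among the processing genes and was not matched by symbol.

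Alternatives were RLE, upper-quartile and no factors, a minimum of 10 counts in each sample, no filter, limma 3.58.1 on the log2 values, DESeq2 1.42.0, each sample left out, a GC correction (loess, span 0.4, on genes with a mean log2 CPM above 3) and subtraction of the receptor background. The study's own gene-by-gene test was not repeated here.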

Additional observations from a re-analysis of the deposited data

How the results depend on the processing

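Of the 45 members called higher, 40 were called in every alternative and all 45 kept a positive change. Lost in at least 1 were *Hist1h1d*, *Hist1h3e*, *Hist1h4k*, *Hist1h4n* and *Hist4h4*, all with a log2 fold change of 1.06 to 1.16 with TMM. Other scalings, tools and filters moved the split of all calls. Higher genes made up 67.8% of calls with TMM, 81.4% with upper-quartile factors, 77.2% with total counts, 78.3% with DESeq2, 78.6% without a filter and 88.0% with the GC correction, and the median of all genes went from 0.10 to 0.32, 0.21, 0.71, 1.30 and 0.27. With the GC correction the medians were 2.20 for all members, 1.51 for H1, 2.88 for H2A, 2.52 for H2B, 2.12 for H3 and 1.82 for H4, and the log2 fold of summed CPM was 1.84, 1.12, 2.41, 1.97, 2.27 and 1.70 in that order. There 2 replacement variants were called higher, 0 lower, and 3 processing genes higher. Upper-quartile factors and background subtraction also gave 2 replacement variants higher. With total counts, no filter and limma, 1 member (*Hist2h3b*) was called lower.

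With each sample left out in turn, members called higher were 40 to 49 and lower 0 to 2, processing genes higher 3 to 5, and chaperones lower 0 to 1. Both members called lower without *Mmp13*-/- sample 6 were those under *Gm20628*.

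Signs changed for 12 genes, of which only *H1fx* had been called. With the GC correction they were *Cstf2* (-0.054), *H1fx* (0.46), *H2afj* (0.21), *H2afy2* (0.41), *Hist2h2ab* (1.16), *Hist2h3b* (0.088) and *Lsm10* (0.53). *Hist2h2bb* gave -3.09 with limma, and -9.11 to 1.63 with samples left out, where the lowest value is fitted against libraries at 0 and is no bound. *H3f3b* gave 0.17, 0.092, 0.085 and 0.12 with upper-quartile factors, total counts, at least 10 counts and background subtraction, and -0.14 to 0.046 with samples left out. *Hist2h2ab* gave 0.19, 0.12, 0.12 and 0.11 under the same alternatives, 0.0061 with RLE factors, and -0.24 to 0.088 with samples left out. *Hinfp* gave 0.011 with upper-quartile factors. *Hist2h2aa2* gave -0.096 without a filter, -0.035 with DESeq2, -0.079 with limma, and -0.19 to 0.18 with samples left out. *Hist1h1c* gave -0.072 to 0.31 with samples left out. The cause of these changes was not tested. No paired analysis was possible because the genotypes share only the replicate number 2.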

Other observations

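The rule leaves out 3 rows with histone symbols that the table types as pseudogenes, and these were named after their values were seen. *Hist1h2al*, on chromosome 13 but far from the Hist1 blocks at chr13:51202727-51203065, had 60.4, 69.2 and 73.5 counts in the WT samples, whereas *Mmp13*-/- samples 1, 2 and 6 had 1562, 1678 and 587 counts. Its log2 fold change of 4.30 (edgeR adjusted p = 3.9e-06) was larger than that of any tested member. *Hist1h2aj* in the first Hist1 block rose by 1.61 and *Hist3h2bb-ps* on chromosome 11 by 2.09, both with every *Mmp13*-/- sample above WT. Reads of these rows and of functional H2A and H2B genes may be shared.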
